A study of Mus musculus with 56 samples.

Results

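Unc93b1, the endosomal Toll-like receptors and the proteins they work with were followed in the blood of mice that carried an internal source of strontium-90 (90Sr), a bone-seeking beta emitter. The members were the 8 gene names Unc93b1, Tlr3, Tlr7, Tlr8, Tlr9, Tlr13, Cnpy3 and Myd88 out of 30199 gene names on the array, and they were read by 11 probes on 20 spots of each array. They were chosen by name. Unc93b1 is a gene that the study selected for quantitative PCR because of its lower level on these arrays, so its values are given here with their errors and without a test. There were 56 C57BL/6 mice of 10 to 12 weeks of age on arrival, held in quarantine for 14 days, of which 28 received 200 kBq of 90Sr chloride through the tail vein, with a small share of 85Sr as a tracer, and 28 received the saline vehicle. The sex of the mice is not given in the sources used here. Whole blood (0.4 mL per mouse) was drawn by cardiac puncture into RNA stabilizing solution at day 4 (4 control and 4 90Sr mice) and at days 7, 9, 25 and 30 (6 and 6 mice per day); control mice were taken at every one of these days. All groups were of the same strain. RNA from 1 mouse was hybridized to 1 array, with Cy3 as the only dye.

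Toll-like receptors are sensors of microbial molecules. A group of them, among them Tlr3, Tlr7, Tlr8, Tlr9 and Tlr13, sits in endosomes and recognizes nucleic acids: Tlr3 binds double-stranded RNA, Tlr7 and Tlr8 bind products of RNA breakdown, Tlr9 binds DNA with unmethylated CpG and Tlr13 of rodents binds bacterial ribosomal RNA. UNC93B1, a membrane protein of the endoplasmic reticulum, carries these receptors to the endosome, CNPY3 helps the chaperone gp96 to fold most Toll-like receptors, and MYD88 is the adaptor through which all of them except TLR3 signal. In blood, B cells, monocytes and plasmacytoid dendritic cells are known for their use of this system.

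The probes that the results turn on are shown first, because 2 probes of Tlr7 gave opposite directions and a run of CT repeats set one of them apart. For each probe the first 30 bases are printed 5' to 3' as in the array files, with the CT run in capitals where there is one. The brighter and the dimmer Tlr7 probe lie on chromosome X of mm9, on the minus strand, at chrX:163742863-163742922 and chrX:163743146-163743205. The 5 genes after them are those whose probes followed the brighter Tlr7 probe most closely across mice.
Tlr7, brighter probe: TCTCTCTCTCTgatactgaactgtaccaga
Tlr7, dimmer probe: cataaatgaaggtctgaatttttcctaaca
Wfdc13: CTCTCTCTCTggatcagcttgctcatcatt
Srpx2: CTCTCTCTCTagactcttcccaaagccttt
BC030476: gagtgttggtgaTCTCTCTCTCTttctttc
Gm757: TCTCTCTtgTCTCTCTgtcaggtgctgaga
4733401D01Rik: TCTCTCTCTCTCataggaggtctcactgta
Unc93b1: agcctggggtcacctggaacttcctccaag

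Levels are log2 processed signals minus the median of the 43020 non-control spots of the same array, so they are relative to that median, and a change is the mean of the 90Sr mice minus the mean of the control mice of the same day. A gene was called where the change was 2-fold or more and limma's unadjusted p was under 0.001. Of the non-control spots, 17809 to 24698 per array were well above background in control mice (median 21049) and 14389 to 22524 in 90Sr mice (median 17863). The array median itself was lower in 90Sr mice at every day, by a log2 difference that ran from -0.59 at day 30 to -0.94 at day 9, and the levels do not carry that shift. Markers of the blood cell types fixed for this work were detected, among them 10 of 10 for B cells, 9 of 10 for monocytes (all but Ly6c2), 10 of 10 for neutrophils and 6 of 6 each for platelets and red cell precursors. The mean over the B cell markers lay between 4.70 and 5.72 in control mice and between 3.04 and 4.66 in 90Sr mice, and the mean over the monocyte markers between 3.46 and 5.54 against 2.73 and 4.41. From these arrays of whole blood alone, fewer cells of a type and less RNA per cell cannot be told apart. At day 4 each slide held 1 group, so slide and group cannot be told apart there. At each later day a single slide held 2 mice of each group. At days 7 and 30 the other 90Sr mice were on a slide that was scanned on another day than the control mice.

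Unc93b1, the carrier of the endosomal receptors, was lower in every 90Sr mouse than in every control mouse at all 5 days. Taken day by day, such a separation held for 35.9%, 27.6%, 23.3%, 30.5% and 16.9% of all genes tested. The Unc93b1 probe lies at chr19:3949081-3949140 of mm9, plus strand, and was well above background on all 56 arrays. At day 4 the 8 levels were 6.43, 6.59, 6.64 and 6.65 in control mice and 3.93, 4.36, 4.61 and 4.69 in 90Sr mice, and at later days the lowest, the median and the highest level of each group of 6 are given. The levels at day 7 were 6.26, 6.70 and 7.14 in control mice and 3.87, 5.13 and 5.25 in 90Sr mice. At day 9 they were 6.18, 6.42 and 6.69 in control mice and 3.96, 4.31 and 5.29 in 90Sr mice. The gap between the groups was at least as wide as the whole range of the control mice at these 3 days. At day 25 the levels were 6.39, 6.53 and 7.01 in control mice and 4.13, 4.70 and 5.49 in 90Sr mice. The levels at day 30 were 5.08, 6.30 and 6.83 in control mice and 4.02, 4.52 and 4.73 in 90Sr mice. At day 30 the lowest control mouse, replicate 4, came nearest to the 90Sr mice, and the groups still did not overlap. The log2 changes were -2.18 (SE 0.19), -1.82 (SE 0.24), -1.94 (SE 0.24), -1.89 (SE 0.26) and -1.79 (SE 0.28) in order of day, and the control mice had 4.52, 3.53, 3.85, 3.71 and 3.47 times the signal of the 90Sr mice. Without replicate 4 of the day 30 control mice the last change was -2.02 (SE 0.22).

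Ordered by their mean level, the 5 control groups of Unc93b1 stood above the 5 90Sr groups. From the highest to the lowest, the control means of days 7, 25, 4, 9 and 30 were 6.68 ± 0.30, 6.64 ± 0.27, 6.58 ± 0.10, 6.43 ± 0.18 and 6.22 ± 0.63 (SD, n = 6, and n = 4 at day 4). Those of the 90Sr mice at days 7, 25, 9, 30 and 4 were 4.86 ± 0.56, 4.75 ± 0.60, 4.49 ± 0.50, 4.42 ± 0.32 and 4.40 ± 0.34. Neighbours in each of these orders differed by less than the larger of their SDs, so that days could not be ranked within a treatment. On the 1 slide per day that held 2 mice of each group, the 90Sr mice were below the control mice at days 7, 9, 25 and 30, with differences of -1.98, -1.63, -1.07 and -1.46. Under the 5 other scalings and background corrections the change stayed between -1.41 and -2.38.

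Cnpy3, the co-chaperone of Toll-like receptor folding, was lower in every 90Sr mouse than in every control mouse at all 5 days and met the threshold at days 4, 25 and 30. Day by day, 35.9%, 27.6%, 23.3%, 30.5% and 16.9% of all genes tested were separated in that way. The Cnpy3 probe (mm9, chr17:46872821-46872880, minus strand) was well above background on all 56 arrays. For Cnpy3 at day 4, the levels were 3.46, 3.47, 3.53 and 3.77 in control mice and 2.38, 2.38, 2.46 and 2.53 in 90Sr mice. For Cnpy3 at day 7 they were 3.64, 3.85 and 3.94 in control mice and 2.53, 2.86 and 3.34 in 90Sr mice. The highest 90Sr value at day 7 stayed under the lowest control value. For Cnpy3 at day 9 the levels were 3.01, 3.42 and 3.795 in control mice and 2.17, 2.38 and 2.58 in 90Sr mice. For Cnpy3 at day 25 they were 3.62, 3.71 and 3.83 in control mice and 1.94, 2.66 and 3.004 in 90Sr mice. The control mice of day 25 lay within a narrow band, and the 90Sr mice below it were spread more widely. For Cnpy3 at day 30 the levels were 2.95, 3.76 and 4.45 in control mice and 1.73, 2.43 and 2.87 in 90Sr mice, with the groups closest to each other at this day. Cnpy3 fell by 1.12 on the log2 scale at day 4 (SE 0.14, limma adjusted p = 0.000242), by 1.14 at day 25 (SE 0.21, adjusted p = 0.000416) and by 1.34 at day 30 (SE 0.27, adjusted p = 0.000571). At days 7 and 9 its changes of -0.95 (SE 0.15, adjusted p = 0.00025) and -0.99 (SE 0.20, adjusted p = 0.000787) missed the 2-fold limit. The size of the change was not found to differ between days (limma interaction F test in 1 fit of all 10 groups, adjusted p = 0.762).

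Myd88, the adaptor, met the threshold at days 4 and 25. Its probe (mm9, chr9:119245322-119245381, minus strand) was printed as 10 spots on each array, which were averaged. Myd88 levels at day 4 were 4.27, 4.31, 4.32 and 4.39 in control mice and 2.76, 2.82, 2.83 and 3.21 in 90Sr mice. Those at day 7 were 3.74, 3.83 and 4.02 in control mice and 2.35, 3.36 and 3.52 in 90Sr mice. At both days the groups did not overlap, and at day 4 the control mice differed from each other by little. Myd88 levels at day 9 were 3.65, 3.93 and 4.58 in control mice and 2.34, 3.16 and 3.70 in 90Sr mice, and 4 of the 6 90Sr mice lay below every control mouse. Levels at day 25, 4.17, 4.51 and 4.85 in control mice and 2.63, 3.52 and 3.69 in 90Sr mice, did not overlap. The day 30 levels were 2.92, 4.22 and 4.46 in control mice and 2.43, 2.84 and 3.56 in 90Sr mice, where the lowest control mouse was replicate 4 and 4 of the 6 90Sr mice lay below it. Myd88 fell by 1.41 on the log2 scale at day 4 (SE 0.15, limma adjusted p = 0.000159) and by 1.20 at day 25 (SE 0.23, adjusted p = 0.000438). The changes at days 7, 9 and 30 were -0.69 (SE 0.19, adjusted p = 0.00662), -0.85 (SE 0.26, adjusted p = 0.0124) and -1.02 (SE 0.29, adjusted p = 0.00499). Without replicate 4 of the control mice, the day 30 change was -1.24 (adjusted p = 0.000374) and met the threshold. The plot of these genes by mouse shows the distance between the groups at each day.

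**Figure D1:**
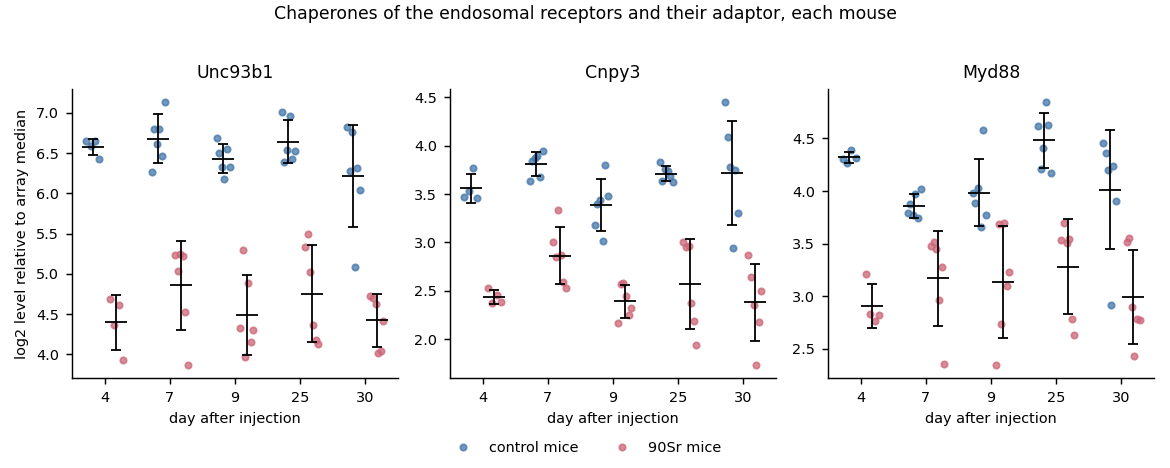
Log2 level relative to the array median (y axis) of Unc93b1, Cnpy3 and Myd88 by day after injection (x axis), 1 point per mouse, with bars for the mean and SD of 4 mice per group at day 4 and 6 at later days. Control and 90Sr points do not overlap for Unc93b1 and Cnpy3 at any day, and for Myd88 they overlap at days 9 and 30.

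The number of members that passed the call threshold was counted over the 5 that the filters left for the test besides Unc93b1, which were Tlr7, Tlr8, Tlr13, Cnpy3 and Myd88. At day 4, 3 of 5 were called, all lower (Tlr13, Cnpy3 and Myd88), where 23.1% of all 14579 genes tested were called lower and 25.9% either way. At days 7 and 9, 0 of 5 were called by limma, where 19.6% and 23.3% of all genes were called. At day 25, 2 of 5 were called, Cnpy3 and Myd88, both lower, beside 26.5% of all genes called lower and 34% either way. At day 30, 3 of 5 were called (41% of all genes): Cnpy3 lower, beside 21.3% of all genes, and Tlr7 and Tlr8 higher, beside 19.7%. The median change over the 5 was -1.12, -0.57, -0.62, -0.79 and -0.03 in order of day, and over all genes tested it was 0.04, 0.07, -0.17, 0.11 and 0.01. Every 90Sr mouse was below every control mouse for 3, 2, 1, 2 and 1 of the 5 members, where this held for 35.9%, 27.6%, 23.3%, 30.5% and 16.9% of all genes, and above for 2 at day 30, where it held for 15% of all genes. With the dimmer Tlr7 probe described further on, in place of the brighter one, 4, 1, 1, 3 and 3 of 5 were called, and the 3 at day 30 were Cnpy3 and Tlr7 lower and Tlr8 higher. Scaling to the 75th percentile of each array moved the median of all detected genes by 0.48 at day 4 and gave changes of -0.79, -0.64 and -0.93 for Tlr13, Cnpy3 and Myd88 there, none of them at 2-fold. At day 25 under the same scaling Myd88 was at -0.72 and not called, and the members called were Tlr8 (1.54) and Tlr9 (1.13), both higher. Centering on the probes that were well above background on all arrays also left Cnpy3 (-0.70) and Myd88 (-0.76) uncalled at day 25. With the slide as a block, 0 of 5 were called at days 25 and 30, where 80 and 247 of all genes were, and the scan day as a block left 0 of 5 at day 30.

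Within 1 slide, Cnpy3 differed by -0.97, -1.26, -0.68 and -0.77 between 2 90Sr and 2 control mice at days 7, 9, 25 and 30, and Myd88 by -0.92, -1.16, -0.79 and -0.53. At each of these days, both 90Sr mice were below both control mice for each of these genes. Under the 5 other scalings and background corrections, the changes of Cnpy3 and Myd88 were below 0 at every day, between -0.57 and -1.73 for Cnpy3 and between -0.33 and -1.62 for Myd88.

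Tlr7, the receptor for single-stranded RNA fragments, was measured by 2 probes that moved in opposite directions, and a further probe was well above background on 0 of the 56 arrays. The brighter probe was well above background on all 56 arrays and stands for the gene in the fit, since the probe of the highest mean was kept. At day 4, it read 7.62, 7.81, 7.996 and 8.40 in control mice and 7.79, 8.29, 8.38 and 8.77 in 90Sr mice. At day 7, it read 7.57, 8.10 and 8.34 in control mice and 7.70, 8.26 and 9.80 in 90Sr mice. The groups overlapped at both days. At day 9, it read 6.82, 8.49 and 9.20 in control mice and 7.10, 9.18 and 10.05 in 90Sr mice. At day 25, it read 6.67, 7.80 and 8.80 in control mice and 7.43, 8.54 and 9.28 in 90Sr mice. The groups overlapped here as well, with 2 and 3 of the 6 90Sr mice above every control mouse. At day 30, it read 5.60, 6.17 and 7.05 in control mice and 7.22, 9.34 and 10.04 in 90Sr mice, and every 90Sr mouse lay above every control mouse. The changes at days 4 to 25 were 0.35 (SE 0.24, adjusted p = 0.229), 0.42 (SE 0.30, adjusted p = 0.229), 0.57 (SE 0.48, adjusted p = 0.35) and 0.73 (SE 0.37, adjusted p = 0.0909), none of them called. At day 30 the probe rose by 2.78 on the log2 scale (SE 0.40, limma adjusted p = 8.49e-05). With the slide as a block the probe rose by 1.37 (limma unadjusted p = 0.028) and with the scan day by 1.96 (unadjusted p = 0.00106), neither called. Its effect differed between days (limma F test, adjusted p = 0.00644, where 22.5% of all genes passed), and that adjusted p was 0.114 once the slide entered as a random block. In the control mice alone its level also differed between days (adjusted p = 0.000461, where 48.2% of all genes passed), and the mean of the day 30 control mice, 6.27, was the lowest of the 5. Within 1 slide the differences at days 7, 9, 25 and 30 were -0.21, 1.103, -0.34 and 1.37.

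The dimmer Tlr7 probe, which lies next to the brighter one on the same transcript, was lower in 90Sr mice at every day. It read 1.099, 2.42, 2.47 and 2.78 in control mice and -0.23, 0.30, 0.39 and 0.82 in 90Sr mice at day 4. It read 1.64, 1.81 and 2.30 in control mice and -0.02, 0.08 and 0.90 in 90Sr mice at day 7. The groups did not overlap at either day. At day 9 the dimmer probe read 1.49, 1.78 and 2.58 in control mice and -0.77, -0.54 and 1.01 in 90Sr mice. At day 25 the dimmer probe read 2.19, 2.31 and 2.68 in control mice and -0.77, 0.40 and 1.30 in 90Sr mice. Every 90Sr mouse was again below every control mouse. At day 30 the dimmer probe read 0.23, 2.06 and 2.16 in control mice and -0.21, 0.23 and 0.75 in 90Sr mice, and replicate 4 of the control mice, the lowest, lay among the 90Sr mice, so that 3 of the 6 90Sr mice were below every control mouse. Fitted probe by probe over all 23317 detected probes, it was called lower at all 5 days by the scaling used throughout, where 16.9%, 12%, 13.3%, 19.6% and 15.9% of all probes were. All 90Sr mice below all control mice, as here at days 4, 7, 9 and 25, held for 32.2%, 23.2%, 18.1% and 27.3% of all probes, and for 13.1% at day 30. It fell by 1.87 at day 4 (SE 0.36, limma adjusted p = 0.00243), by 1.64 at day 7 (SE 0.17, adjusted p = 9.38e-05) and by 2.13 at day 9 (SE 0.30, adjusted p = 0.000114) on the log2 scale. It fell by 2.01 at day 25 (SE 0.30, adjusted p = 0.000191) and by 1.51 at day 30 (SE 0.32, adjusted p = 0.000968). The signal was near background: it was well above background on 33 of 56 arrays and in none of the 90Sr mice at days 7 and 9, where the control mice were at least 2.53-fold and at least 2.24-fold higher. Background subtraction with an offset of 50, in place of the scanner software's own correction, left changes between -0.48 and -0.81 in the 5 days, and none was called. At day 4 the call was also lost in 6 of the 8 fits without 1 mouse, where the change stayed between -1.68 and -2.23, and under the 75th percentile, quantile and bright-probe scalings, with changes of -1.39, -1.57 and -1.46. With the slide as a block the calls at days 25 and 30 were lost (-1.13 and -1.35), and with the scan day as a block the call at day 30 (-1.07). Within 1 slide the dimmer probe differed by -1.37, -2.11, -1.13 and -1.35 at days 7, 9, 25 and 30, with both 90Sr mice below both control mice each time.

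**Figure D2:**
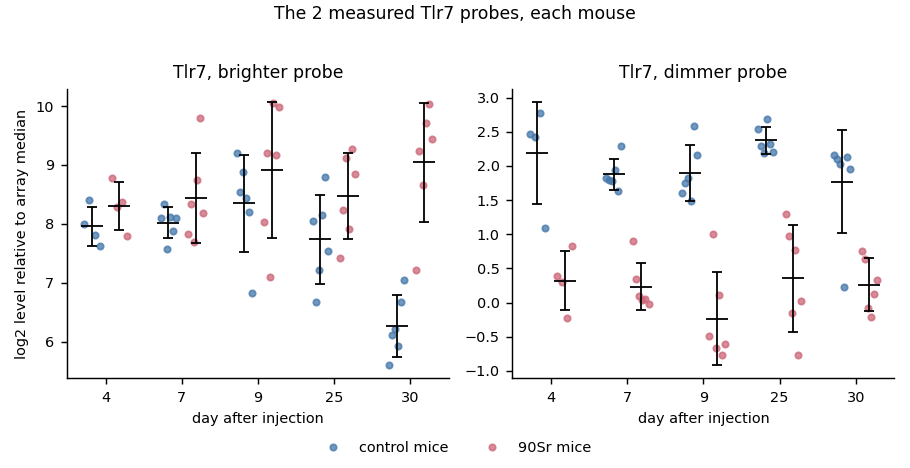
Log2 level relative to the array median (y axis) of the brighter and the dimmer Tlr7 probe by day after injection (x axis), 1 point per mouse with the mean and SD of each group. The brighter probe is higher in every 90Sr mouse at day 30 only, and the dimmer probe lies lower in the 90Sr mice at all 5 days, with 1 control mouse of day 30 among them.

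The brighter Tlr7 probe begins with the run of CT repeats printed above, and its values followed those of other probes with such a run. The search was for CTCTCTCTCT on the strand printed, and 31 of the 39429 probes on the array hold it (0.0786%), the brighter Tlr7 probe among them. All 31 were detected. Across the 56 arrays, with group means removed, the other 30 correlated with the brighter Tlr7 probe at a median r of 0.924 (0.106 to 0.993), and 18 of them were over 0.9. Among all 23316 other detected probes 46 were over 0.9, and 42 of those 46 contain CTCTCT, which 2.73% of the detected probes do. The 5 closest were the probes named for Wfdc13 (r = 0.993), Srpx2 (0.989), BC030476 (0.987), Gm757 (0.986) and 4733401D01Rik (0.985), of which Gm757 holds an interrupted run. These probes share arrays, scaling and base composition, and the correlation is a description. The median change of the 31 probes was 0.32, 0.40, 0.78, 0.76 and 1.99 in order of day, against -0.03, -0.03, -0.08, -0.13 and 0.09 over all detected probes, and 27 of the 31 were called higher at day 30, where 14.4% of all probes were. The dimmer Tlr7 probe holds no such run and correlated with the brighter one at r = -0.16. What the probes with the run measured was not tested. The table of processed values that the authors deposited lists the dimmer Tlr7 probe alone of the 3.

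**Figure D3:**
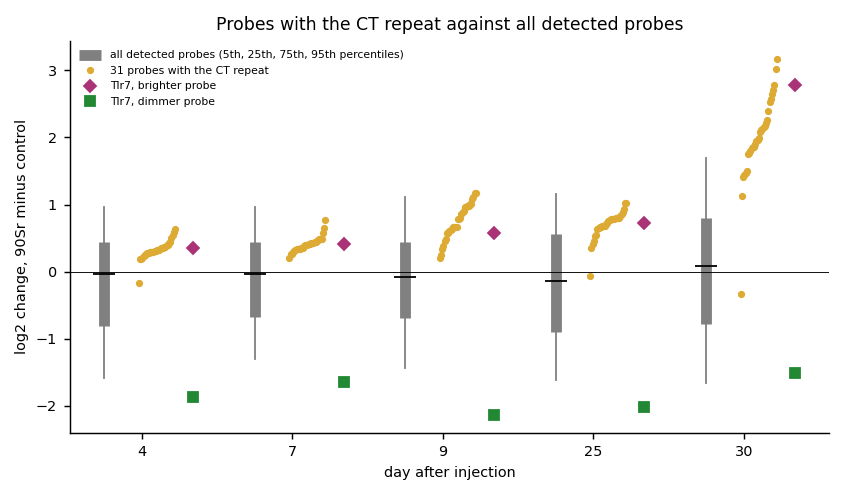
Log2 change, 90Sr minus control (y axis), by day after injection (x axis) for the 31 probes with the CT repeat (points), the 2 Tlr7 probes (diamond and square) and all detected probes (grey box from the 25th to the 75th percentile, line from the 5th to the 95th, bar at the median). The brighter Tlr7 probe lies among the repeat probes at each day, at 2.78 at day 30, and the dimmer one lies between -1.51 and -2.13, away from them.

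Tlr8, the other receptor for RNA fragments and a neighbour of Tlr7 on chromosome X, was read by a probe at chrX:163680628-163680685 (mm9, minus strand) that was well above background on all 56 arrays. A second Tlr8 probe was well above background on 1 array. Tlr8 levels at day 4 were 1.59, 2.17, 2.21 and 2.39 in control mice and 2.09, 2.55, 3.12 and 3.41 in 90Sr mice. At day 7 the Tlr8 levels were 1.77, 2.28 and 2.73 in control mice and 2.40, 2.88 and 3.45 in 90Sr mice. The groups overlapped at both days. Tlr8 levels at day 9 were 2.59, 3.07 and 3.55 in control mice and 2.45, 2.90 and 3.68 in 90Sr mice, at day 25 they were 0.94, 1.58 and 2.35 in control mice and 2.14, 2.68 and 3.32 in 90Sr mice, and both days showed overlap. Day 30 levels were 0.00, 1.39 and 2.08 in control mice and 2.53, 3.53 and 3.95 in 90Sr mice, with every 90Sr mouse above every control mouse. Tlr8 rose by 2.15 on the log2 scale at day 30 (SE 0.33, limma adjusted p = 0.00012), and the changes at days 4, 7, 9 and 25 were 0.70 (SE 0.30, adjusted p = 0.0651), 0.66 (SE 0.21, adjusted p = 0.0154), -0.13 (SE 0.25, adjusted p = 0.684) and 1.06 (SE 0.29, adjusted p = 0.00469), none of them called. Its effect differed between days (limma F test, adjusted p = 0.000841, or 0.0473 with a random slide block). The control mice differed between days too (adjusted p = 1.44e-05), with means of 3.07, 2.25, 2.09, 1.67 and 1.27 at days 9, 7, 4, 25 and 30. Neighbours in that order below day 9 differed by less than the larger of their SDs. At day 9 the change was above 0 under 3 of the 5 other scalings and background corrections and below 0 under 2. Background subtraction with an offset of 50 left a change of 0.80 at day 30, under 2-fold. With the slide as a block the day 30 change was 1.51 (limma unadjusted p = 0.0152) and was not called. The scan day as a block gave 1.63 (limma unadjusted p = 0.00186), also not called. Within 1 slide the Tlr8 differences at days 7, 9, 25 and 30 were 0.79, 0.51, 0.72 and 1.51. At day 25 Tlr8 was called higher under the 75th percentile, quantile and bright-probe scalings, with changes of 1.54, 1.48 and 1.496.

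Tlr9, the receptor for CpG DNA, was not called at any day by the scaling used throughout, where its changes were above 0. Its probe (mm9, chr9:106128979-106129038, plus strand) was well above background on all 56 arrays but differed by 1.5-fold from its median on 14.3% of arrays, fewer than the 20% that the variation filter asks, and it was therefore tested in a fit of the 18796 genes past the detection filter. Tlr9 read 7.32, 7.41, 7.79 and 7.86 in control mice and 7.53, 7.90, 7.92 and 8.10 in 90Sr mice at day 4. Tlr9 read 6.75, 7.01 and 7.15 in control mice and 7.16, 7.29 and 7.72 in 90Sr mice at day 7. The groups overlapped at day 4 and not at day 7, where the 90Sr mice were the higher, as they were for 9.96% of the 14580 genes past both filters. At day 9, Tlr9 read 6.75, 7.31 and 7.50 in control mice and 7.45, 7.52 and 7.67 in 90Sr mice. At day 25, Tlr9 read 6.45, 6.65 and 7.07 in control mice and 6.80, 7.35 and 7.93 in 90Sr mice. The groups overlapped at both days. At day 30, Tlr9 read 7.06, 7.21 and 7.40 in control mice and 7.41, 7.59 and 8.01 in 90Sr mice, with every 90Sr mouse above every control mouse. The same held for 15% of the 14580 genes past both filters. Tlr9 is not among those genes, so the shares for days 7 and 30 come from another set than its fit. The changes were 0.27 (SE 0.18, adjusted p = 0.223), 0.37 (SE 0.12, adjusted p = 0.0193), 0.31 (SE 0.17, adjusted p = 0.162), 0.65 (SE 0.21, adjusted p = 0.0135) and 0.45 (SE 0.16, adjusted p = 0.0238) in order of day, none at 2-fold. The change depended on the processing. At day 25 it was 1.13 under scaling to the 75th percentile and 1.09 under centering on bright probes, both called higher. Under background subtraction with an offset of 50 the change was -0.10, -0.11, -0.49, 0.01 and -0.42, and under scaling to the authors' reference array it was -0.07 at day 9. In control mice Tlr9 differed between days (limma F test, adjusted p = 0.000278, where 56.4% of these genes passed), and the effect of 90Sr was not found to differ between days (adjusted p = 0.596, where 22.9% passed).

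Tlr13, the receptor for bacterial ribosomal RNA, was called lower at day 4 and at no later day. Its probe lies at chrX:103355773-103355832 (mm9, plus strand) and was well above background on all 56 arrays. Tlr13 levels were 4.82, 4.95, 5.03 and 5.16 in control mice and 3.27, 3.595, 4.00 and 4.00 in 90Sr mice at day 4, without overlap. They were 4.16, 4.65 and 5.21 in control mice and 3.48, 4.12 and 4.82 in 90Sr mice at day 7 and 4.22, 5.28 and 5.63 in control mice and 3.498, 4.57 and 5.20 in 90Sr mice at day 9. The groups overlapped at days 7 and 9. They were 4.79, 5.46 and 5.91 in control mice and 3.99, 4.66 and 5.01 in 90Sr mice at day 25. At day 30 they were 3.76, 4.86 and 5.74 in control mice and 4.39, 4.89 and 4.97 in 90Sr mice. The groups overlapped again at both days, and at day 30 their medians lay side by side. Tlr13 fell by 1.27 on the log2 scale at day 4 (SE 0.20, limma adjusted p = 0.000524). The later changes were -0.57 (SE 0.25, adjusted p = 0.0581), -0.62 (SE 0.32, adjusted p = 0.125), -0.79 (SE 0.24, adjusted p = 0.00858) and -0.03 (SE 0.27, adjusted p = 0.92). A difference in effect between days was not shown (adjusted p = 0.191). At day 30 the sign turned under 2 of the 5 other scalings and background corrections. Without replicate 4 of the control mice of that day the change was -0.25 (adjusted p = 0.298).

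**Figure D4:**
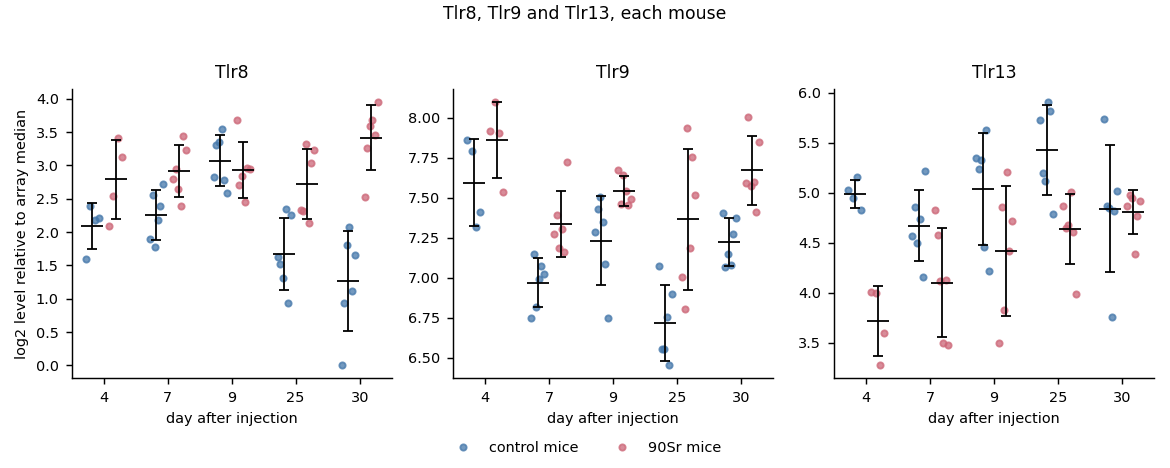
Log2 level relative to the array median (y axis) of Tlr8, Tlr9 and Tlr13 by day after injection (x axis), 1 point per mouse, with the mean and SD of each group. The 90Sr mice lie above all control mice for Tlr8 at day 30 and for Tlr9 at days 7 and 30, and below them for Tlr13 at day 4.

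Tlr3, the receptor for double-stranded RNA, was at background. Its probe (mm9, chr8:46481729-46481788, minus strand) was well above background on 1 of 56 arrays, that of replicate 3 of the day 7 control mice with a level of 3.89, and was left out of the fit because 94.6% of its spots were marked.

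Differences between members within the same array do not depend on the scaling of the array, and 8 of them were compared between control and 90Sr mice at each of the 5 days by two-sided exact permutation tests, with p adjusted over the 40 comparisons. The difference of Tlr9 minus the mean of the 10 B cell markers was higher in 90Sr mice at every day, by 2.05, 1.81, 2.08, 2.49 and 2.14 on the log2 scale. Every 90Sr mouse lay above every control mouse at each day (exact permutation adjusted p = 0.0457 at day 4, where the smallest possible unadjusted p is 0.0286, and 0.00722 at each later day). With the dimmer Tlr7 probe among the 40, the adjusted exact p of the day 4 difference was 0.0519. The markers themselves differed by -1.44 to -1.84, and Tlr9 by 0.27 to 0.65, not called by the scaling used throughout. The marker lists were chosen with earlier results of these data known, so these p-values do not test a change of Tlr9 itself. Relative to Tlr13, Tlr9 rose by 1.54, 0.94, 0.93 and 1.44 at days 4, 7, 9 and 25 (exact permutation adjusted p = 0.0457, 0.0173, 0.0457 and 0.00722), and at day 30 the difference of 0.48 did not pass (exact adjusted p = 0.095). With the dimmer Tlr7 probe among the 40, the adjusted exact p of the differences to Tlr13 at days 4 and 9 was 0.0519 and 0.0501.

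The B cell markers in the same arrays differed by -1.78, -1.44, -1.77, -1.84 and -1.69 in the mean, with 8, 8, 7, 8 and 8 of the 9 that were tested called lower (23.1%, 16.1%, 17.9%, 26.5% and 21.3% of all genes), and control and 90Sr mice did not overlap in that mean at any day. Among them are Ms4a1, Cd79a and Cd79b, each called lower at all 5 days. Of the 10 B cell markers detected, 10, 10, 10, 9 and 8 had a change below 0. The highest change among those tested was 0.64 at day 25 and 1.13 at day 30. The plasmacytoid dendritic cell markers differed by -0.09, -0.30, -0.33, -0.44 and -0.15 in the mean, with 1, 2, 1, 2 and 2 of 7 called lower and 1, 0, 1, 0 and 2 called higher. Their part in the values of the receptors was not tested.

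By its brighter probe Tlr7 was higher relative to both marker lists at all 5 days, by 1.33 to 4.48 on the log2 scale. By the dimmer probe the differences to the B cell markers were -0.09, -0.21, -0.36, -0.17 and 0.18 (exact permutation adjusted p from 0.17 to 0.914). Those to the monocyte markers were -0.83, -0.73, -1.23, -0.94 and -0.39 (exact permutation adjusted p = 0.0879, 0.00618, 0.0144, 0.0108 and 0.142). Background limits these values, since the dimmer probe was well above background in 0 of 6 90Sr mice at days 7 and 9. Of the 40 comparisons 25 passed an adjusted p of 0.05 (exact permutation tests). That count includes differences to the marker lists, which were chosen with earlier results of these data known. The p-values of those differences do not test a change of a receptor itself. It also includes differences that use the brighter Tlr7 probe with its CT run. With the dimmer Tlr7 probe in place of the brighter one, 18 of the 40 passed. The difference of Tlr7 minus Tlr13 then turned its sign. It was -1.07, -1.52, -1.22 and -1.48 at days 7, 9, 25 and 30, against 0.99, 1.19, 1.52 and 2.82 by the brighter probe.

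Tlr13 relative to the monocyte markers differed by -0.23, 0.34, 0.29 and 0.28 at days 4, 7, 9 and 25, none of which passed. At day 30 the difference was higher by 1.09, with every 90Sr mouse above every control mouse (exact permutation adjusted p = 0.00722). Tlr13 itself changed by -0.03 at that day. The marker list was chosen with earlier results of these data known, so this p does not test a change of Tlr13 itself. The monocyte markers themselves differed by -1.04, -0.91, -0.90, -1.08 and -1.12 in the mean, with 6, 6, 5, 6 and 4 of 9 called lower, beside the same shares of all genes. Ccr2, Cx3cr1 and Ms4a6c were called lower at all 5 days, as were 8.4% of all genes. Not all of the list went that way: 7, 6, 6, 7 and 7 of the 9 monocyte markers had a change below 0. The highest change on the list was 0.75, 0.81, 0.67, 1.04 and 0.23 in order of day. Myd88 relative to Cnpy3 did not pass at any day, with differences from -0.29 to 0.32 (exact permutation adjusted p from 0.0738 to 0.725).

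The genes around the members were counted in 4 lists: the Toll-like receptors of the cell surface with their co-receptors, the proteins of receptor folding, transport and cleavage, those that handle nucleic acids in the endolysosome, and the adaptors, kinases and transcription factors downstream. The order of values is by day. Of 11 surface receptors and co-receptors, 10 were tested, and 5, 3, 4, 6 and 4 were called lower. Cd14, which is also on the monocyte list, was not called at any day. Their median change was -1.37, -0.89, -0.86, -1.12 and -0.92. Of 16 folding, transport and cleavage genes, 10 were tested and 9, 8, 5, 7 and 4 were called lower, with a median change of -1.58, -1.34, -1.16, -1.47 and -1.21. Of 7 nucleic acid handling genes, 5 were tested and 3, 3, 2, 3 and 2 were called lower, with medians of -1.18, -1.03, -0.83, -1.24 and -0.89. Of 22 genes of the signal chain, 13 were tested and 7, 6, 6, 6 and 6 were called lower, with medians of -1.15, -0.997, -0.97, -1.15 and -0.93. These counts stand beside 23.1%, 16.1%, 17.9%, 26.5% and 21.3% of all genes called lower and a median of all genes between -0.17 and 0.11. Without replicate 4 of the day 30 control mice, 7 of 10 transport genes and 8 of 13 signal genes were called lower at day 30, and 6725 genes of the whole array were called, against 5980 with it.

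On the cell surface, Tlr1, which pairs with Tlr2 for bacterial lipopeptides, fell by 1.81, 1.65, 1.67, 2.40 and 2.72, and Ly86, the partner of CD180, fell by 2.00, 1.81, 2.17, 2.04 and 1.95 (limma, log2 scale, called lower at all 5 days, where 8.4% of all genes were). For Tlr1 the levels ran from 3.38 to 3.68 in control mice and from 1.43 to 2.06 in 90Sr mice at day 4, and from 2.78 to 3.63 against 0.00 to 1.75 at day 30. The groups of Tlr1 were apart at all 5 days, where between 16.9% and 35.9% of all genes had every 90Sr mouse below every control mouse at a given day. Tlr2 was called lower at days 4, 7, 9 and 25, with changes of -1.35, -1.34, -1.15 and -1.13, and Ly96, the lipopolysaccharide-binding partner of TLR4, was called at days 4, 9, 25 and 30 with -1.45, -1.26, -1.62 and -1.57. Tlr5, the flagellin receptor, was the 1 gene of its list called higher, at day 25 by 1.81 (adjusted p = 0.000977, where 7.48% of all genes were), with changes of 1.01, 1.14, -0.87 and 1.65 at days 4, 7, 9 and 30. It was named after its values were seen.

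In folding, transport and cleavage, Hsp90b1, which encodes the chaperone gp96 that CNPY3 assists, fell by 1.32, 1.48, 1.08 and 1.19 at days 4, 7, 9 and 25 (limma, log2 scale), and its change of -1.05 at day 30 was not called. Slc15a4, a lysosomal histidine transporter needed for Tlr7 and Tlr9 responses, fell by 2.04, 1.56, 1.64, 1.85 and 2.22. Its partner 5430427O19Rik, also known as Tasl, was called lower at days 4, 7, 9 and 25, with changes of -1.84, -1.26, -2.09 and -1.996. Slc15a4 was called at all 5 days, and the lowest of its control levels, 5.57 at day 30, was above the highest 90Sr level of that day, 4.71. The cathepsins that cut receptors and other cargo in the lysosome fell as well: Ctss by 2.06, 1.68, 1.89, 1.89 and 1.77, and Ctsh by 2.11, 1.63, 1.98, 1.95 and 1.93. Scarb2, a lysosomal membrane receptor, was called at 4 days with changes between -1.17 and -1.71 over the 5. Ctsb, another cathepsin, went the other way and was called higher at days 9 and 30, by 1.23 and 1.103 (adjusted p = 0.000715 and 0.000481, where 5.44% and 19.7% of all genes were), as a gene named after its values were seen.

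Among the nucleic acid handling genes, Pld4, an endolysosomal exonuclease for single-stranded nucleic acids, fell by 1.77, 1.58, 1.95, 1.85 and 1.62. Rnaset2a, an RNase of the same compartment, fell by 1.14, 1.04, 1.06, 1.24 and 1.16 (limma, log2 scale, both called at all 5 days). Rnaset2a has a near-identical copy in the mouse genome, which its probe may also read. In the signal chain, the transcription factor Irf5 fell by 2.01, 1.97, 1.93, 2.04 and 2.07, and the transcription factor Irf3 was called lower at all 5 days with changes of -1.15, -1.15, -1.27, -1.71 and -1.44. Ikbkb, a kinase that releases NF-kappaB, fell by 1.35, 1.41, 1.54, 1.60 and 1.12. Irak3, an inhibitory member of the IRAK family, and the ubiquitin ligase Traf3 were each called lower at 4 days. Ikbkg, the regulatory subunit of the same kinase complex, was the 1 signal gene called higher, at day 30 by 1.20 (adjusted p = 0.00131), and not without replicate 4 of the control mice. The 17 genes named here by the rule, those called at 4 or 5 days, are all lower, and all 85 of their changes were below 0 under each of 5 other scalings and background corrections. Their choice rests on calls on these same arrays, so the shared sign is no independent support. The smallest change was -0.31 under background subtraction with an offset of 50 and -0.58 under scaling to the 75th percentile, both under 2-fold. The mice of 1 slide, which also entered the choice of these genes, gave differences below 0 for the 17 at days 7, 9, 25 and 30, with Tlr2 at -0.00885 at day 30, and they overlapped for Tlr2 at day 30 and for Traf3 at days 9 and 25.

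**Figure D5:**
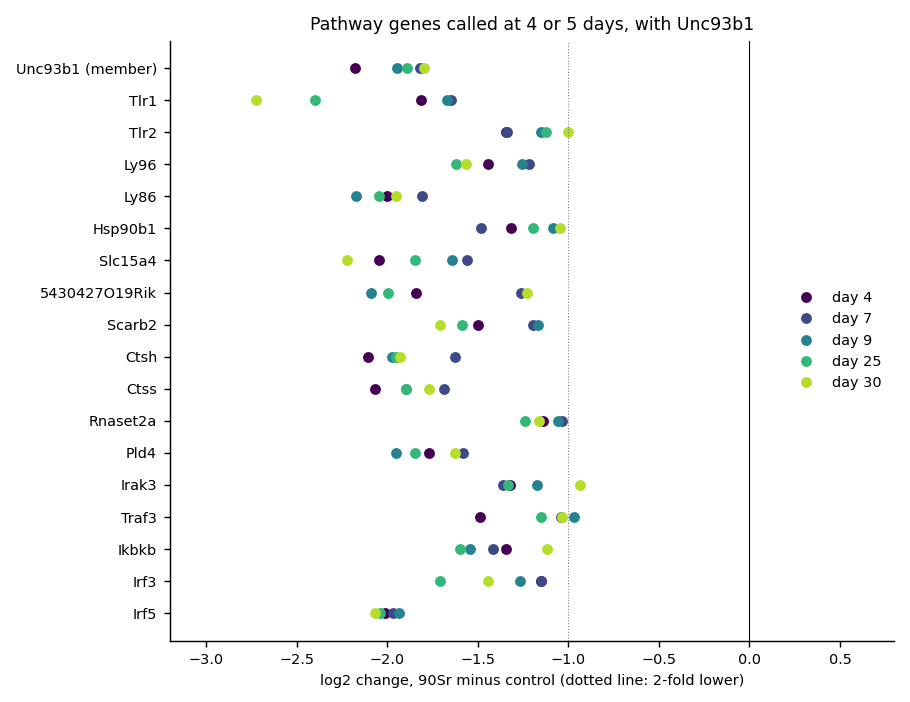
Log2 change, 90Sr minus control (x axis), of Unc93b1 and of the 17 pathway genes called at 4 or 5 days (y axis), 1 point per day coloured by day after injection, with a dotted line at a 2-fold lower level. All points lie below 0, from -0.93 for Irak3 at day 30 to -2.72 for Tlr1 at day 30.

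Across the 56 arrays, with the means of the 10 groups removed, the genes most like Unc93b1 were Lsp1 (r = 0.927), Fcgr2b (0.925), Mgst1 (0.907), Plcg2 (0.905) and Gsdmd (0.902). Fcgr2b, the inhibitory Fc receptor, and Plcg2, a phospholipase of receptor signalling, had mean changes over the 5 days of -2.13 and -1.68. Among the members, Unc93b1 was nearest to Myd88 (r = 0.774) and Cnpy3 (0.744), then to the dimmer Tlr7 probe (0.633) and Tlr13 (0.592). With the brighter Tlr7 probe, Tlr9 and Tlr8 it gave r = -0.03, -0.06 and -0.36. Myd88 and Tlr13 gave r = 0.801. The closest genes to the dimmer Tlr7 probe were Hps4 (0.796) and, among the 5 closest, the monocyte marker Ms4a6c (0.770). Those to Tlr13 were Emilin2 (0.881) and Bin3 (0.857), and those to Tlr9 were 1700001K19Rik (0.892) and LOC101055715 (0.882). Those to Tlr8 were the probes named for Fbxw21 (0.868) and Vmn1r173 (0.855), with mean changes over the 5 days of 0.72 and 0.77. What the Tlr8 probe shares with them was not tested. The arrays share slides and the scaling, and these correlations are a description of 56 mice.

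Of the 8 members, 6 have a promoter entry in the RefSeq table (GRCm38.p6), and 250 bases before the start were searched on both strands. The promoters of Myd88, called lower at 2 days, and Tlr9, called at none, are shown for comparison, with the motif found in capitals, written 5' to 3' on the strand of the gene. The interferon response element GAAANNGAAA was found in that of Myd88, and 978 of 32851 promoters hold it (2.98%). The motif GAGGAA, the core of PU.1 binding sites, was found in those of Tlr8, Tlr9, Tlr13 and Cnpy3, and 7639 promoters hold it (23.3%). Tlr3 held neither. A match is a stretch of letters and not a known binding site.
Myd88 (chr9:119340019-119340268, minus strand): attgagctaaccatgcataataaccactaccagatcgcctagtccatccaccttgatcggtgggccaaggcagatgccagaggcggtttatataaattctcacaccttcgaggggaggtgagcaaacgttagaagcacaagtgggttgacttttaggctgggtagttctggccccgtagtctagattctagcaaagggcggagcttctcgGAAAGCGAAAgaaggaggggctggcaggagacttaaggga
Tlr9 (chr9:106222348-106222597, plus strand): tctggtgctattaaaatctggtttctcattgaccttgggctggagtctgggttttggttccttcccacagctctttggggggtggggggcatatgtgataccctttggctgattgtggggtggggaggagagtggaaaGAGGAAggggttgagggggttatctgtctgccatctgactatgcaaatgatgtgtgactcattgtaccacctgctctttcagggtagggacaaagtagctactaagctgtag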

How the data were processed

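RNA from the whole blood of 56 mice was hybridized with a single dye to Agilent arrays of the mouse genome, with 4 arrays on each of 14 slides. The authors deposited the processed signal of each spot as an intensity on a linear scale, background corrected by Feature Extraction (version 11.5.1.1 per the file headers and 10.7 per the submitters' processing notes) and not scaled between arrays, with other columns that flag spots as non-uniform, above or well above background, or saturated. The authors' processed log2 values of 14208 probes, also deposited and scaled to the array of replicate 6 of the day 30 90Sr group, were an alternative. The number of arrays limits the precision. Each array is a mouse of its own, and p-values set the difference between groups against the spread between mice. At day 4 no slide held control and 90Sr mice together. At each later day most mice of each group were on slides without the other group. Tests without the slide or scan day as a block therefore do not separate 90Sr from slide. At days 7 and 30 they do not separate it from scan day either.

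Log2 signals were centered on each array's median over the 43020 non-control spots of 44397. Non-uniform spots were treated as missing and spots of a probe averaged. A probe was kept for detection if fewer than 25% of arrays had it flagged as non-uniform or as not above background, which left 23317 probes of 18796 genes. A variation filter then asked for a distance of 1.5-fold from the probe's median on at least 20% of arrays, which left 17095 probes of 14580 genes (14579 with values at day 4). The probe of highest mean stood for a gene. Control and 90Sr mice were compared within each day by limma 3.58.1 in R 4.3.3 (lmFit, eBayes; statmod 1.5.0, data.table version 1.17.8), with Benjamini-Hochberg adjustment over all genes tested. Tests between days used limma's F test in 1 fit of all 10 groups. The smallest exact permutation p over mice is 0.0286 at day 4 and 0.00216 at later days. For a probe that no mouse of a group showed well above background, the fold is a lower bound: each array of the dim group was set to the dimmest probe well above background on it, or to the probe's own signal if that was higher, and the mean of these log2 values was taken from the mean of the bright group.

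The genes named are the 8 members, pathway genes called at 4 or 5 days and the 5 genes most like a member. The members, gene lists and marker lists were chosen with earlier results of these data known. In simulated data with 200 genes changed by 2 on the log2 scale, 91.5%, 95.5%, 89%, 94.5% and 93% were recovered in order of day, with 6, 13, 14, 10 and 5 false calls. The recovery of smaller changes, such as those of Cnpy3, Myd88 and Tlr13, was not simulated, so a member not called is not shown to be unchanged. Gene names and probe positions (mm9) are those of the array files. Alternatives were other scalings, filters, probe choices, background correction, slide, scan day or replicate number as a block, 1 fit of all 10 groups, the authors' values, and each array left out in turn. Replicate numbers were not taken to pair the mice.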

Additional observations from a re-analysis of the deposited data

Results flagged for a closer look

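In 9 of 110 sets of values checked (8.18%, where chance gives about 1 in 20), from 11 probes in the same 10 groups of mice, 1 mouse lay far from the rest of its group. Replicate 4 of the day 30 control mice was low for Myd88 (2.92) and for the dimmer Tlr7 probe (0.23), and replicate 1 of the day 4 90Sr mice was high for Myd88 (3.21). Replicate 4 of the day 30 90Sr mice was low for Tlr13 (4.39). The remaining values came from probes at background on almost every array. They were Tlr3 in replicate 3 of the day 7 control mice (3.89, well above background) and in replicate 6 of the day 9 control mice (-0.63), the third Tlr7 probe in replicate 6 of the day 30 90Sr mice (-0.78), and the second Tlr8 probe in replicate 3 of the day 25 90Sr mice (1.36) and in replicate 6 of the day 30 90Sr mice (0.41).

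The size of the 90Sr effect was not the same at all days for the brighter Tlr7 probe (limma interaction F test, adjusted p = 0.00644) and for Tlr8 (adjusted p = 0.000841), both with their highest change at day 30. Over the whole array 22.5% of genes passed the same test.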

How the results depend on the processing

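Unc93b1, Cnpy3, Myd88 and the dimmer Tlr7 probe kept a change below 0 at all 5 days under every alternative that gave a value, and Tlr13 did at days 4, 7, 9 and 25; the brighter Tlr7 probe and Tlr8 kept theirs above 0 at day 30 where that probe was used. The causes of the differences below were not tested. Members called are out of 5 (main values 3, 0, 0, 2 and 3 in order of day; Tlr7, Tlr8, Tlr13, Cnpy3 and Myd88) and genes called out of 14580 (3779, 2852, 3404, 4957 and 5980) unless said otherwise.

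Scaling to the 75th percentile, where Tlr9 passed the variation filter and Cnpy3 did not, called 0 members at day 4 and 1 at day 7 and gave Tlr8 0.26 at day 9 and Tlr13 0.15 at day 30. It moved the median of all detected genes by 0.48, 0.35, 0.39, 0.48 and 0.19, and of the genes called 29.6%, 24.5%, 28.3%, 20.8% and 36.1% were lower, against 89.2%, 82.3%, 76.7%, 78.0% and 51.9%. Quantile normalization called 0 of 4 members (Cnpy3 not tested) at day 4 and 1 at day 25, gave Tlr8 0.26 at day 9 and put 60.6%, 49.4%, 60.6%, 42.8% and 51.0% of called genes lower. Centering on probes well above background everywhere called 1 of 6 members (Tlr9 added) at day 4, gave Tlr8 0.15 at day 9 and Tlr13 0.017 at day 30 and put 40.04%, 31.5%, 42.3%, 24.1% and 49.1% lower. The authors' reference array called 1 member at day 7 and 2 at day 9 and put 96.2%, 95.9%, 96.6%, 97.4% and 82.2% lower. The level in control mice differed between days for 2 of 5 members (Tlr7 and Tlr8), and over those other sets for 5 of 5, 4 of 4 and 5 of 6 with these 3 scalings in turn. The normexp correction is left out, since its fit raised the median spot above its background-subtracted signal on 30 of 56 arrays. Subtracting the background with an offset of 50, added after seeing the data, called 2295, 1224, 2136, 3217 and 2912 of 5609 genes and 2 of 4 members at day 9, gave the brighter Tlr7 probe -0.19, -0.076 and -0.18 at days 4, 7 and 9, and passed 14 of the 40 within-array differences (25 in the main setting).

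The mean of the Tlr7 probes gave -0.76, -0.61, -0.78 and -0.64 at days 4, 7, 9 and 25. The authors' values, which hold the dimmer Tlr7 probe, gave -1.89, -1.68, -2.14, -1.72 and -1.81, with 1 member called at day 7 and 2 at day 9. With the dimmer probe for Tlr7, also added after seeing the data, 1 member was called at day 7 and 1 at day 9. Requiring probes well above background on 75% of arrays called 1871 of 8343 genes at day 7, and no filters 10031 of 30199 at day 30.

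The slide as a block left 1749, 871, 80 and 247 genes called at days 7, 9, 25 and 30 and 0 members at days 25 and 30, with Tlr7 -0.21 and -0.34 at days 7 and 25, Tlr8 0.51 at day 9 and Tlr13 0.0030 at day 30. As a random block it called 1 member at day 9, and 1 member's effect differed between days, against 2. The scan day as a block called 1 member at day 7, and at day 30 it called 1074 genes and 0 members, with Tlr7 -0.0043 at day 7 and Tlr13 0.079 at day 30. Deviations of same-numbered mice correlated at -0.28 to 0.34, over 0.1 in 3 of 4, 1 of 6, 0 of 6, 1 of 6 and 3 of 6 pairs. At day 4 they ran from 0.07 to 0.31, so the check does not settle pairing there. The mice were treated as unpaired. The replicate block called 3741, 2596, 2743, 4418 and 6073 genes and 3, 0, 0, 2 and 4 members, and not the dimmer Tlr7 probe at day 4.

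With each array left out in turn, genes called ranged over 2969 to 3976, 2154 to 3469, 2827 to 3667, 3976 to 5551 and 4909 to 6806, and members called over 3 to 3, 0 to 1, 0 to 1, 2 to 2 and 3 to 4. The day 30 change of Tlr13 ran from -0.25 to 0.15 and within-array differences passed from 17 to 27. Signal over background limits the dimmer Tlr7 probe, Tlr3 and the remaining Tlr7 and Tlr8 probes.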

Other observations

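Red cell precursor markers, among them Alas2, Slc4a1 and Ahsp, differed in their mean by 0.53, 0.76, 1.23, 0.55 and 1.35 between 90Sr and control mice in order of day, from day 4 to day 30. Of the 6, 5 were called higher by limma at days 9 and 30, where 5.44% and 19.7% of all genes were. The mean of the platelet markers, which include Pf4 and Ppbp, differed by 0.29, 0.09, 0.18, -0.03 and 0.76. T cell markers differed by -0.47 to -0.62 over the 5 days and NK cell markers by -0.29 to -0.69, with at most 2 of 7 T cell markers and 0 of 5 NK cell markers called lower at any day. Neutrophil markers differed by -0.72, -0.36, -0.24, -0.83 and -0.25, with 2, 1, 0, 2 and 0 of 9 called lower. Of all genes, 23.1%, 16.1%, 17.9%, 26.5% and 21.3% were called lower. All these means are on the log2 scale relative to the array median.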
